A study of Nematostella vectensis with 18 samples.

Results

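Nep3-positive cells were set against Ncol3-negative cells, 9 of the 18 RNA-seq libraries of the series (5 Nep3-positive and 4 Ncol3-negative), chosen by the reporter and sort gate in their titles. All cells came from dissociated tentacles of untreated Nematostella vectensis polyps, a sea anemone, held at 18 °C and a salinity of 16 permil. The Nep3-positive cells were the mOrange-positive gate of the Nep3::mOrange reporter line, and the labels call them nematocytes. The Ncol3-negative cells were the mOrange-negative gate of the Ncol3::mOrange line. Both groups thus carried an mOrange transgene, but a different one, and the reporter line and the sort gate differed together between them. The labels give neither the age, the sex, the number of animals per library nor whether a line derives from a single founder. All libraries have the same batch label. The 5 Nep3-negative and 4 Ncol3-positive libraries entered the fit and are used below to place the values.

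Cnidocytes are the stinging cells of cnidarians. Each builds a capsule inside a secretory vesicle, with a wall of short collagens called minicollagens, of which Ncol3 is 1, and a load that in nematocytes holds toxins such as Nep3. Sea anemones also make spirocytes, cnidocytes whose capsules entangle prey, and the cells that lack a reporter of a venom gene can therefore still be cnidocytes. The Ncol3-negative fraction is sorted against a capsule wall gene and serves here as a baseline meant to hold fewer cnidocytes. Whether it does was not tested. Genes in the deposited table are listed by NV2 numbers. None of these IDs matched the RefSeq gene table of this species (0 matches), so neither Ncol3, Nep3 nor any marker of neurons, gland cells or muscle could be looked up, and the labelled cell types were checked by the reporter transcript alone. No role can be given to any NV2 gene named below.

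The library totals did not separate the groups. They lay between 7627503 and 15269119 counts in Nep3-positive libraries and between 5463324 and 13624512 in Ncol3-negative libraries (exact permutation test, two-sided, p = 0.492). Pearson's r of log2 CPM (CPM, counts scaled by the TMM-adjusted library size) across 18976 genes was between 0.953 and 0.972 within Nep3-positive libraries and between 0.943 and 0.967 within Ncol3-negative libraries. Between the groups it was between 0.819 and 0.869, so every library was more like each of its own group than like any of the other. No pair of replicates agreed within sampling noise (lowest chi-square per degree of freedom 6.29). Nothing in the labels says that replicates came from separate animals, and p-values measure the spread between these libraries only.

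The reporter transcript mOrange2 was higher in the Nep3-positive libraries but far from absent in the baseline. It stood at 618, 928, 539, 798 and 675 CPM in Nep3-positive replicates 1 to 5 and at 248, 215, 380 and 353 CPM in Ncol3-negative replicates 1 to 4. The groups did not overlap, with a difference of 413 CPM (exact permutation test, two-sided, p = 0.0159, the smallest that 5 against 4 libraries allow). The log2 fold change was 1.25 (SE 0.44), which passed the threshold of 0.05 (edgeR quasi-likelihood test, adjusted p = 0.0375). The baseline level was 42.0% of the Nep3-positive level and 31.8% of the Ncol3-positive level. The direction was the same in all 20 alternatives, from 0.95 to 1.60, but the adjusted p passed in 11 of them and ranged from 9.17e-05 to 0.235. Against Ncol3-negative replicates 3 and 4 alone the value was 0.95 (edgeR adjusted p = 0.235), and leaving out any 1 of 7 single libraries also ended the call. Because the transcripts of the 2 lines come from different promoters, this difference does not measure sort purity. Of the genes tested, 9.68% had a higher fold change than mOrange2. In Nep3-negative libraries mOrange2 stood at 87.5 ± 69.9 CPM (SD, n = 5), below the Ncol3-negative level. The log2 fold change of Nep3-negative minus Ncol3-negative cells was −1.77 (SE 0.44, edgeR adjusted p = 0.0163), which also spans different promoters. Within lines, positive minus negative cells gave 3.02 (SE 0.44) in the Nep3 line and 1.65 (SE 0.47) in the Ncol3 line.

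Nep3-positive and Ncol3-negative cells differed in a broad part of the transcriptome. The threshold of 0.05 was passed by 6558 of 18976 genes (34.6%; edgeR quasi-likelihood test, Benjamini-Hochberg adjustment over all genes), 3443 (18.1%) higher and 3115 (16.4%) lower in Nep3-positive cells. At an unadjusted p under 0.05 there were 8171. The median log2 fold change was 1.23 among the higher and −1.31 among the lower genes, against −0.02 over all genes. The smallest called changes were 0.31 and −0.32. In bulk libraries fewer cells of a type and less RNA per cell cannot be told apart, so a called change is a change in share of the RNA.

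The split between directions depended on the scaling. With library size only, 2220 genes were higher and 4061 lower, so 35.3% of the calls were higher instead of 52.5%. Over all genes the median log2 fold change then stood at −0.23, a shift that follows the TMM factors, which were between 1.14 and 1.29 in Ncol3-negative and between 0.954 and 1.13 in Nep3-positive libraries. DESeq2 size factors and TMM without the 20 highest genes gave 51.7% and 51.2% higher calls.

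The total beyond 2-fold lay between 2065 and 2073 genes under the 4 scalings. A test against a 2-fold change (glmTreat in edgeR, adjusted p under 0.05) called 2065 genes (10.9%), 1184 (6.24%) higher and 881 (4.64%) lower. Library size only gave 2073, but 990 higher and 1083 lower. With a mean of at least 5 CPM required, 1374 were called out of fewer genes tested, 786 of them higher. In 1174 of the 1184 higher genes every Nep3-positive library exceeded every Ncol3-negative library, and in 863 of the 881 lower genes the reverse held. Over all genes tested, 16.2% did not overlap in the higher and 14.4% in the lower direction. These groups of values are those that the calls were made from, so the absence of overlap is a description.

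Large upward changes were more numerous than large downward ones. Among called genes, 600 were higher by a log2 fold change of 3 or more and 178 lower by as much, and 85 were higher by 5 or more against 24 lower. A mean under 1 CPM in Ncol3-negative and of at least 10 CPM in Nep3-positive libraries was seen for 66 genes, and the opposite for 6.

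**Figure D1:**
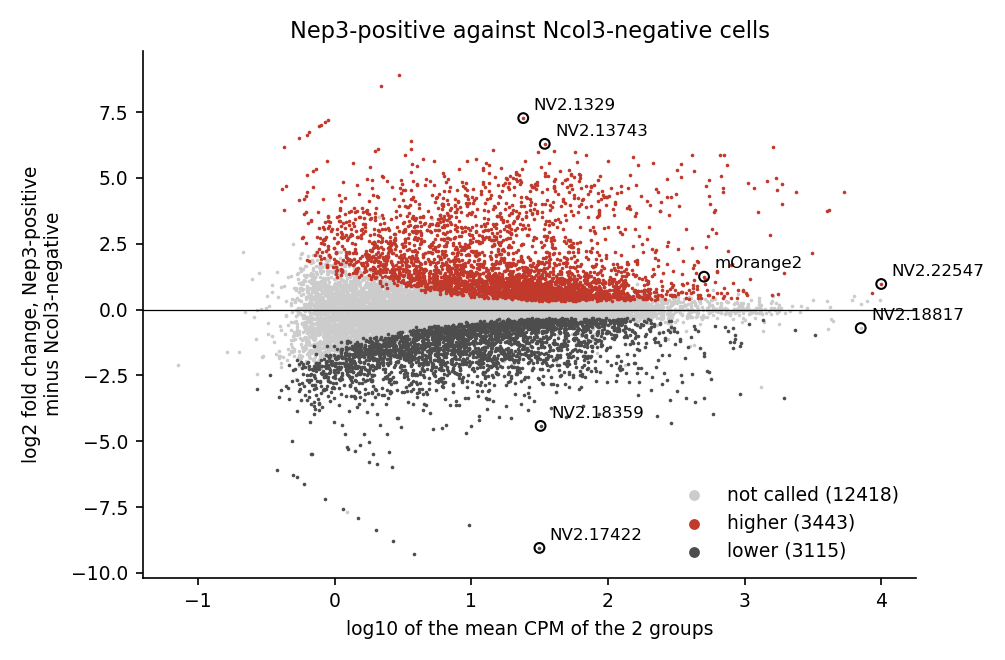
Each point is 1 of the 18976 genes tested, with the log10 of the mean CPM of the 2 groups on the x axis and the fitted log2 fold change of Nep3-positive minus Ncol3-negative cells on the y axis; red points are the 3443 higher and dark points the 3115 lower genes. Named transcripts are circled, and the points furthest from 0 on the left have few counts, some with none in 1 group, where the fitted value is no measure of size.

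With TMM scaling, direction varied with abundance. Among 1159 genes with a mean under 1 CPM, 6.38% were higher and 13.98% lower in Nep3-positive cells. Among 398 genes at 300 CPM or more, 26.6% were higher and 10.8% lower. The share of higher calls increased from each abundance bin to the next. The share of lower calls was highest, at 19.2%, in genes between 3 and 10 CPM. Precision varied too: the median SE of the log2 fold change was 0.72 in the lowest bin and 0.20 in the highest. Of the 100 genes with the highest mean over both groups, 21 were higher, 5 lower and 74 not called. These 100 genes held between 25.9% and 29.0% of the tested counts in Nep3-positive and between 22.7% and 24.2% in Ncol3-negative libraries.

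**Figure D2:**
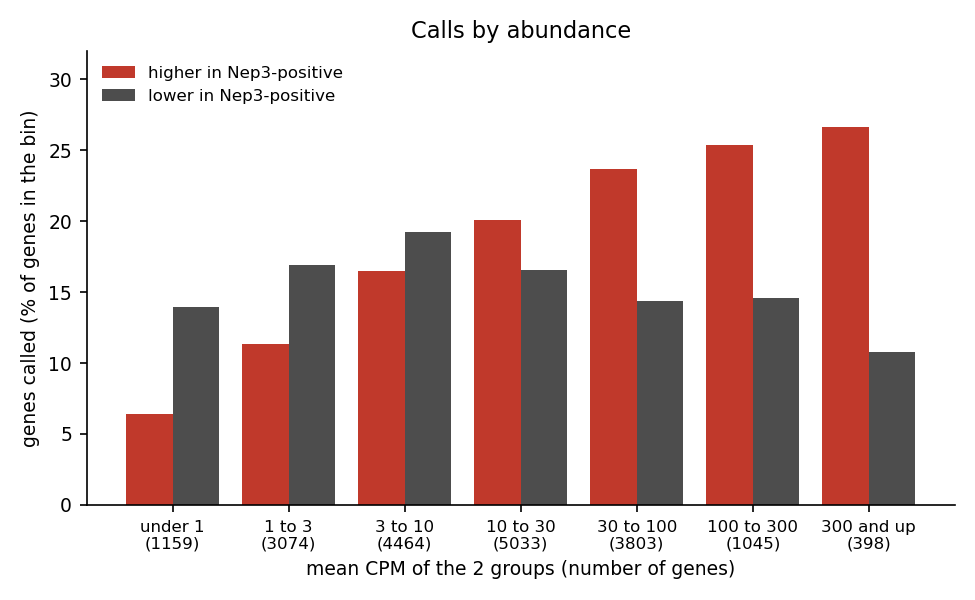
Bars give the percentage of genes called higher (red) or lower (dark) in Nep3-positive cells in each bin of the mean CPM of the 2 groups, with the number of genes in a bin under the axis. The red bars go from 6.38% in the lowest bin to 26.6% in the highest, while the dark bars peak at 19.2%.

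The composition of the libraries was compared as well. The top 20 genes made up 14.1% ± 0.954 of all counts in Nep3-positive (SD, n = 5) and 12.2% ± 0.963 in Ncol3-negative libraries (SD, n = 4). The ranges overlapped, from 13.1% to 15.6% and from 11.2% to 13.2%. The difference of 1.84 percentage points had an exact permutation p of 0.0317 (two-sided), and 0.0476 after adjustment over 2 tests. For the genes detected, CPM was taken on the library total without the TMM factor. Genes at 1 CPM or more numbered 17378 ± 211 in Nep3-positive and 17932 ± 344 in Ncol3-negative libraries. The difference was −554 (exact permutation p = 0.0476, adjusted 0.0476). The TMM factors were higher in Ncol3-negative libraries (1.14 to 1.29) than in Nep3-positive ones (0.954 to 1.13). A count at TMM-adjusted CPM was not tested. With all libraries thinned to the lowest total the differences were 1.84 percentage points and −615 genes (exact permutation, adjusted p = 0.0317 for both). Leaving out any 1 of the 9 libraries ended both calls, with exact permutation adjusted p between 0.0571 and 0.107, though the smallest p that such designs allow is 0.0286 or 0.0357.

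The 2 genes that rose most by the naming rule were NV2.1329 and NV2.13743. The rule took the highest and lowest fold changes among 3231 genes that were called, had a mean of at least 10 CPM and showed no overlap. NV2.1329 stood at 32.9, 24.5, 46.5, 49.3 and 85.0 CPM in Nep3-positive replicates 1 to 5. In Ncol3-negative libraries it had 6, 7, 0 and 0 counts, or 0.356 and 0.891 CPM in replicates 1 and 2. Every Nep3-positive library was well above the baseline, and replicate 5 was the highest. The log2 fold change was 7.27 (SE 0.55, edgeR adjusted p = 2.19e-09). The size is poorly fixed because the baseline holds so few counts: against Ncol3-negative replicates 1 and 2 alone it was 6.40.

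NV2.13743 stood at 55.7, 52.1, 59.2, 58.6 and 115 CPM in Nep3-positive and at 1.42, 1.15, 0.300 and 0.321 CPM in Ncol3-negative libraries. Nep3-positive replicates 1 to 4 lay close together and replicate 5 lay above them. The log2 fold change was 6.30 (SE 0.45, edgeR adjusted p = 9.56e-10), and without replicate 5 it was 6.03. Both genes were also higher than in Nep3-negative cells, by 5.66 (SE 0.43) and 5.00 (SE 0.36), and higher than in Ncol3-positive cells, by 4.30 (SE 0.43) and 3.61 (SE 0.37), all on the log2 scale. Their order over the groups was the same, with Nep3-positive first, then Ncol3-positive at 2.42 ± 1.08 and 5.46 ± 2.06 CPM, then Nep3-negative at 0.920 ± 0.186 and 2.10 ± 0.934 CPM, then Ncol3-negative (SD, n = 4, 5 and 4). Between the 2 negative groups, the log2 fold changes of Nep3-negative minus Ncol3-negative cells were 1.61 (SE 0.70) and 1.30 (SE 0.48). They did not pass after adjustment over all genes (edgeR adjusted p = 0.178 and 0.112).

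NV2.23832 had the profile most like that of NV2.1329, with a Pearson r of 0.982 in log2 CPM over the 18 libraries, which include the libraries compared. It stood between 40.5 and 103 CPM in Nep3-positive and between 1.12 and 4.07 CPM in Ncol3-negative libraries, with no overlap. Its log2 fold change was 4.73 (SE 0.33, edgeR adjusted p = 1.59e-10).

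The 2 genes that fell most by the naming rule were NV2.17422 and NV2.18359. NV2.17422 had no count in Nep3-positive replicates 1, 2 and 3 and 2 and 4 counts in replicates 4 and 5. In Ncol3-negative libraries it stood at 28.7, 36.0, 90.2 and 96.5 CPM, so that replicates 3 and 4 were well above replicates 1 and 2. The fitted log2 fold change was −9.05 (SE 0.60, edgeR adjusted p = 5.88e-10), and it rests on 6 counts on the Nep3-positive side. This gene was also near 0 in Nep3-negative libraries, at 0.439 ± 0.360 CPM (SD, n = 5). The 2 populations of the Nep3 line did not differ detectably (log2 fold change −1.94, SE 0.96, edgeR adjusted p = 0.125). In Ncol3-positive libraries it was at 8.73 ± 1.54 CPM (SD, n = 4).

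NV2.18359 stood at 1.71, 2.23, 4.10, 3.01 and 3.23 CPM in Nep3-positive and at 73.6, 58.2, 55.8 and 58.0 CPM in Ncol3-negative libraries. The groups lay far apart, and the Ncol3-negative libraries were close to each other except for the higher replicate 1. The log2 fold change was −4.42 (SE 0.29, edgeR adjusted p = 3.93e-11). It was also lower than in Nep3-negative cells, at 12.1 ± 3.88 CPM (log2 fold change −2.08, SE 0.27), and than in Ncol3-positive cells, at 21.0 ± 8.57 CPM (−2.88, SE 0.28). The Nep3-negative level was itself below the Ncol3-negative one (−2.34, SE 0.25, edgeR adjusted p = 2.52e-06).

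NV2.13460 had the profile most like that of NV2.17422 over the 18 libraries (Pearson r 0.956 in log2 CPM). It had no count in any of the 10 libraries of the Nep3 line and stood at 8.66, 8.79, 6.75 and 5.94 CPM in Ncol3-negative libraries. Against a floor of 3 counts over the Nep3-positive libraries together, 0.0536 CPM, the Ncol3-negative mean of 7.53 CPM makes it at least 141-fold lower in Nep3-positive cells. Ncol3-positive libraries held between 1.10 and 3.27 CPM.

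**Figure D3:**
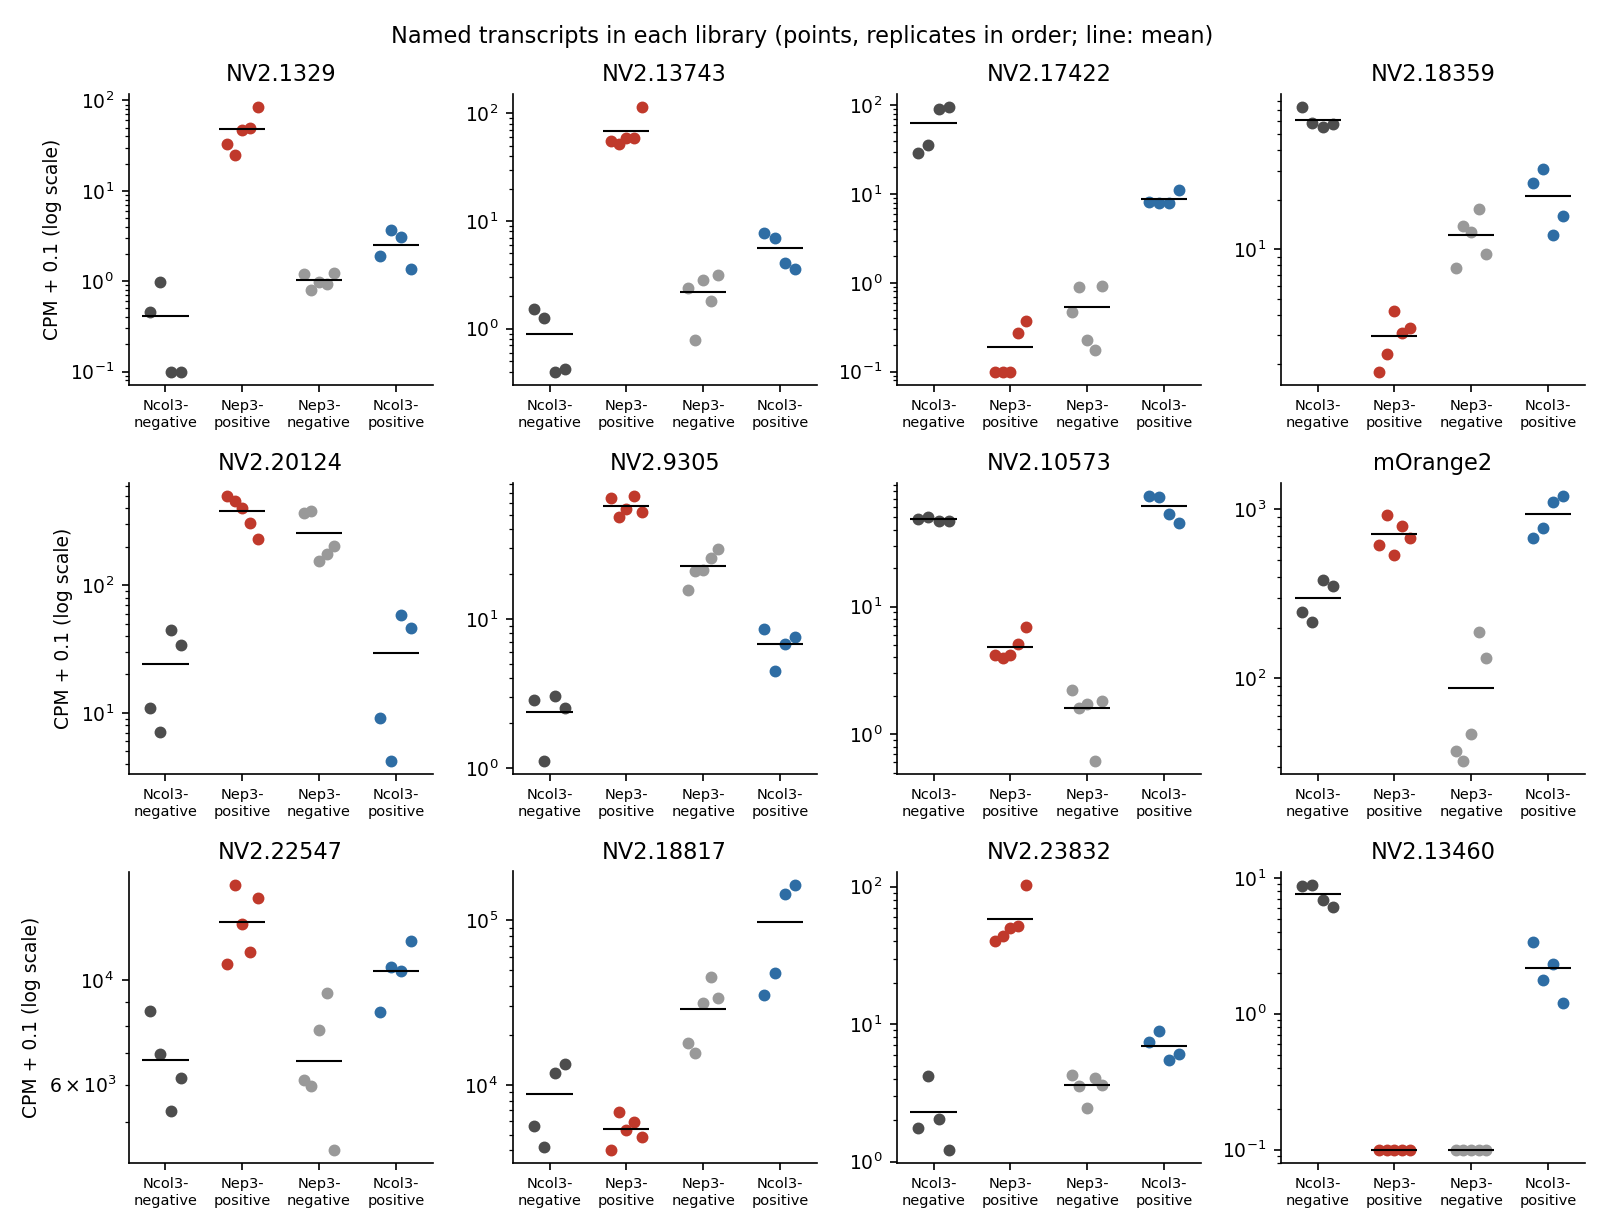
Each panel shows 1 named transcript in all 18 libraries, with CPM + 0.1 on a log axis, a point per library in replicate order and a line at the group mean. NV2.1329, NV2.13743 and NV2.23832 are high in Nep3-positive libraries alone, whereas NV2.17422, NV2.10573 and NV2.13460 are low in both groups of the Nep3 line and NV2.20124 and NV2.9305 are high in both.

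The most abundant gene of the Nep3-positive libraries was NV2.22547, at 10831, 15968, 13161, 11462 and 14976 CPM. In Ncol3-negative libraries it stood at 8595, 6976, 5274 and 6208 CPM, with no overlap, and the log2 fold change was 0.97 (SE 0.22, edgeR adjusted p = 0.00118). Against Ncol3-negative replicates 1 and 2 alone it was 0.75 and did not pass (edgeR adjusted p = 0.0686). The most abundant gene of the Ncol3-negative libraries was NV2.18817, at 5622, 4229, 11850 and 13417 CPM. Its mean was higher outside this comparison, at 97412 ± 65559 CPM in Ncol3-positive (SD, n = 4) and 28765 ± 12238 CPM in Nep3-negative libraries (SD, n = 5). The Ncol3-positive libraries spread from 34960.5 to 163750 CPM. The gene is thus not particular to Ncol3-negative cells. It was between 4054 and 6860 CPM in Nep3-positive libraries, overlapping the baseline, and the log2 fold change of −0.70 (SE 0.43) did not pass (edgeR adjusted p = 0.229). With library size only it was −0.88 and passed (edgeR adjusted p = 0.0421). With Ncol3-negative replicates 1 and 2 alone the value was 0.12 (edgeR adjusted p = 0.897). With replicates 3 and 4 alone it was −1.23 (edgeR adjusted p = 0.0546). The 2 pairs of baseline libraries thus gave opposite signs, but neither value passed.

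Whether a change depends on which negative population is the baseline was tested directly. The difference between the log2 fold change against Ncol3-negative cells and that against Nep3-negative cells is the contrast of the 2 negative populations, and 1613 of 18976 genes (8.5%) passed in it (edgeR adjusted p under 0.05), 972 (5.12%) higher and 641 (3.38%) lower in Nep3-negative cells. At an unadjusted p under 0.05 there were 4111. Without Ncol3-negative replicate 2 the count was 1023, and with Ncol3-negative replicates 3 and 4 alone it was 658. Of the 6558 genes called in Nep3-positive against Ncol3-negative cells, 908 (13.8%) passed, as did 705 (5.68%) of the 12418 not called. Both contrasts use the Ncol3-negative libraries, which links the 2 shares. Among the 2065 genes beyond 2-fold, 363 (17.6%) passed, 196 higher and 167 lower in Nep3-positive cells.

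With Nep3-negative cells as the baseline, 7179 genes (37.8%) were called, 3535 (18.6%) higher and 3644 (19.2%) lower. The 2 comparisons share the Nep3-positive libraries, and no overlap between them is read as support. A total of 41 genes were called against both baselines in opposite directions, 18 of them higher than in Ncol3-negative and lower than in Nep3-negative cells and 23 the reverse.

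The genes whose change depended most on the baseline were named by a second rule, among 447 genes that met the first and also differed between the negative populations. NV2.20124 stood at 502, 460, 402, 308 and 231 CPM in Nep3-positive and at 10.9, 7.0, 44.5 and 33.9 CPM in Ncol3-negative libraries. All Nep3-positive libraries were higher, and in the baseline replicates 3 and 4 were above replicates 1 and 2. The log2 fold change was 3.98 (SE 0.76, edgeR adjusted p = 0.000743). Against Nep3-negative cells, at 256 ± 110 CPM, it was 0.57 (SE 0.61) and did not pass (edgeR adjusted p = 0.518), and the 2 negative populations differed by 3.41 (SE 0.74, edgeR adjusted p = 0.00931).

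NV2.9305 stood between 47.9 and 67.0 CPM in Nep3-positive and between 1.02 and 2.92 CPM in Ncol3-negative libraries, a log2 fold change of 4.598 (SE 0.26, edgeR adjusted p = 1.67e-12). Nep3-negative libraries lay in between, from 15.6 to 29.2 CPM, and the log2 fold change against them was 1.35 (SE 0.19). The lower genes of this rule were NV2.17422, described above, and NV2.10573. NV2.10573 stood at 4.10, 3.83, 4.10, 4.98 and 6.80 CPM in Nep3-positive and at 48.2, 50.4, 46.7 and 46.9 CPM in Ncol3-negative libraries, with little spread in either group. It was lower than in Ncol3-negative cells (log2 fold change −3.31, SE 0.22, edgeR adjusted p = 2.90e-11) and higher than in Nep3-negative cells (1.71, SE 0.26, edgeR adjusted p = 7.59e-06). Which population served as the baseline thus set the direction for this gene. In Ncol3-positive libraries it was between 44.9 and 73.8 CPM, close to the Ncol3-negative level (log2 difference 0.35, SE 0.21, edgeR adjusted p = 0.252).

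A subset of genes separated the reporter lines as wholes. For 188 genes (0.991%) every one of the 10 Nep3-line libraries was above every one of the 8 Ncol3-line libraries, and for 158 (0.833%) every one was below. Of the 3443 higher genes 181 (5.26%) belonged to the first set, and of the 3115 lower genes 155 (4.98%) to the second. The sets and the calls share libraries, so these are counts and not a test. Among the 24 genes with a log2 fold change of −5 or lower, 15 belonged to the second set and 4 were called lower than in Nep3-negative cells. Among the 85 genes with 5 or higher, 4 belonged to the first set and 80 were called higher than in Nep3-negative cells. Over all genes, 18.6% were called higher and 19.2% lower than in Nep3-negative cells. The 80 reuse the Nep3-positive libraries that gave these genes their fold change. A gene near 0 in both groups of the Nep3 line can hardly be called lower, so the counts of 80 and 4 cannot be set against each other. The strain background, the transgene and its site in the genome, and the time of sorting could differ between the lines and cannot be told apart from the sort gate in this comparison.

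The comparison of Ncol3-positive with Nep3-negative cells, added after the data were seen, shares no library with that of Nep3-positive and Ncol3-negative cells and has the reporter lines the other way round. It called 6614 genes (34.9%), 3288 (17.3%) higher and 3326 (17.5%) lower in Ncol3-positive cells. Of the 1184 genes higher beyond 2-fold in Nep3-positive cells, 668 (56.4%) were higher there too, 119 (10.1%) were lower and 397 were not called. Of the 881 lower beyond 2-fold, 557 (63.2%) were lower there too, 136 (15.4%) were higher and 188 were not called. The median log2 fold change in this other comparison was 1.07 over the 1184 and −1.41 over the 881 genes, against −0.00 over all genes. Across all 18976 genes the log2 fold changes of the 2 comparisons were correlated with a Pearson r of 0.239 (Spearman rho 0.200). This is a description across genes that do not vary independently, and the 4 groups share 1 scaling and 1 estimate of the spread. With library size only, 618 genes instead of 1143 were higher in both comparisons, and 2204 instead of 1331 were lower in both, counting all called genes.

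**Figure D4:**
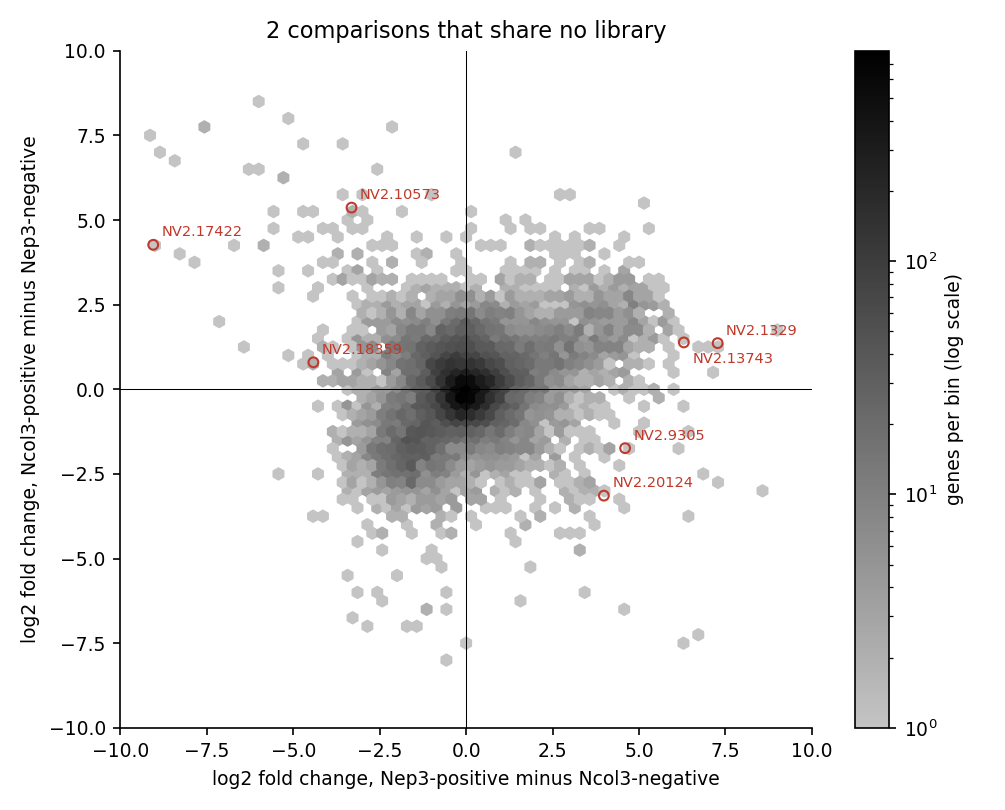
Shading gives the number of genes per bin, with the log2 fold change of Nep3-positive minus Ncol3-negative cells on the x axis and that of Ncol3-positive minus Nep3-negative cells on the y axis, which use different libraries. Genes far to the right lie mostly above 0, with a cloud to the lower left, while NV2.17422, NV2.10573, NV2.9305 and NV2.20124 have opposite signs in the 2 comparisons.

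Nep3-positive cells were then placed among all 4 populations. In 1917 genes (10.1%) they were higher than each of the other 3 groups, and in 790 (4.16%) lower than each (edgeR adjusted p under 0.05 in 3 contrasts, which share the Nep3-positive libraries). The second count was 484 with Ncol3-negative replicates 1 and 2 alone. The median log2 fold change against Ncol3-negative cells was 1.69 over the 1917 and −1.09 over the 790 genes. Of the 1184 genes higher beyond 2-fold, 1063 were also higher and 4 lower than in Ncol3-positive cells. Of the 881 lower beyond 2-fold, 338 were also lower and 19 higher than in Ncol3-positive cells. Over all genes, 37.2% were called between these positive populations, 20.7% higher and 16.5% lower in Nep3-positive cells.

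The genes beyond 2-fold took up different shares of the libraries. Those higher in Nep3-positive cells held 13.4%, 14.0%, 16.4%, 15.1% and 21.0% of the tested counts in Nep3-positive replicates 1 to 5 and between 1.78% and 2.27% in Ncol3-negative libraries. In the libraries outside the contrast that chose these genes, which shared in the filter, the scaling and the estimate of the spread, they held between 1.96% and 2.09% in Nep3-negative and between 2.39% and 3.67% in Ncol3-positive libraries. Those lower held between 0.782% and 1.22% in Nep3-positive and between 5.38% and 6.25% in Ncol3-negative libraries, and between 3.06% and 4.39% in Nep3-negative and between 1.07% and 1.57% in Ncol3-positive libraries. For the lower genes, the Ncol3-positive shares thus lay near the Nep3-positive range and the Nep3-negative shares nearer to the baseline. These are shares of unscaled counts. The top 20 genes of a library held between 20.7% and 34.9% of counts in Ncol3-positive and between 11.2% and 13.2% in Ncol3-negative libraries. What part this composition has in the shares was not tested.

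**Figure D5:**
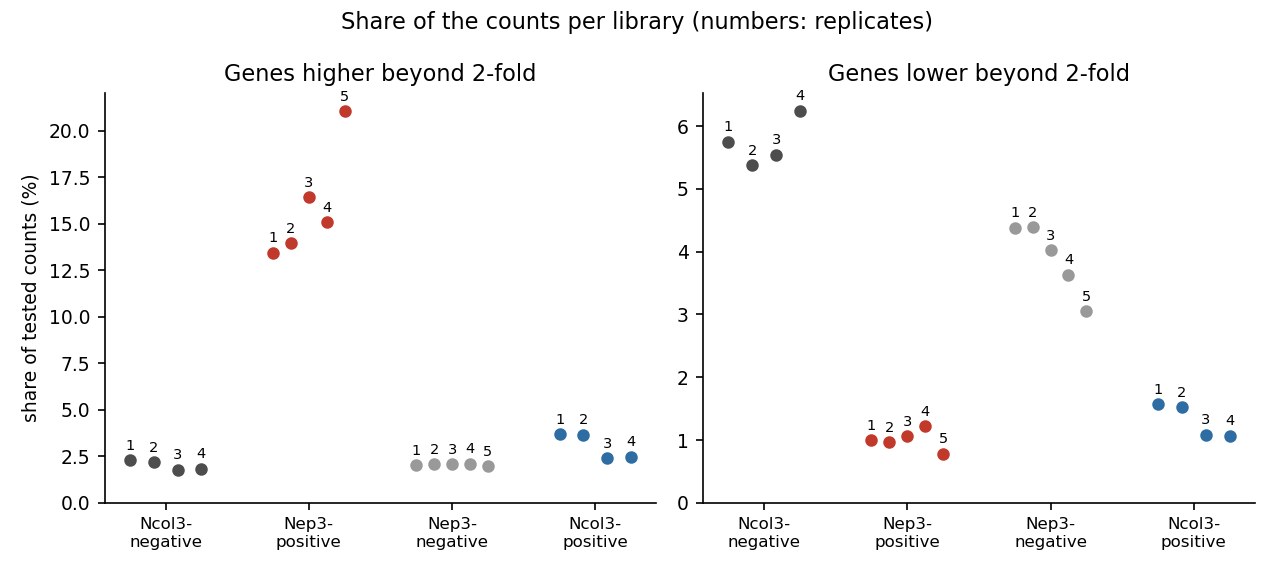
Points give the share of the tested counts, in percent, that genes higher (left) or lower (right) beyond 2-fold held in each library, numbered by replicate. Nep3-positive replicate 5 is highest on the left with 21.0% and lowest on the right with 0.782%.

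Nep3-positive replicate 5 stood apart in the size of its upward changes. It had the highest value of the 5 libraries in 845 (71.4%) of the 1184 genes higher beyond 2-fold, against 24.8% of all genes tested. Replicates 1 and 2 had the lowest value in 473 (39.9%) and 346 (29.2%) of the 1184 genes, against 20.5% and 25.2% of all genes. Replicate 5 was also the lowest in 270 (30.6%) of the 881 lower genes, against 19.0% of all genes. Both sets of genes were called from these same libraries, replicate 5 among them, so these shares are a description. It was the deepest library, with 15269119 counts, and had the lowest TMM factor of its group, 0.954. Without it, 5886 genes were called and 1842 beyond 2-fold, 1061 higher and 781 lower. Its mOrange2 level, 675 CPM, was the median of the 5. Whether the reporter transcript follows the size of the upward changes was not tested.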

How the data were processed

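The authors deposited raw counts per gene for 18 libraries in a single table. Per the submitters' processing notes, Trimmomatic, STAR 2.7.10a and featureCounts 2.0.1 were used; per the labels' protocols, libraries were directional and selected for poly(A) RNA. The genome build, annotation and strand setting are not given in the sources used here, so paralogs and overlapping genes are uncertain. The table had 24538 entries, mOrange2 among them, of which 773 had no count. Of 33 listed markers of cnidocytes and other cell types, 1 (mOrange2) was paired with an entry.

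Groups and replicate numbers came from the titles. The design text gives 4 replicates per condition and the descriptions number all 5 Nep3-positive libraries 1, and the titles were followed. With edgeR 4.0.16 in R 4.3.3, filterByExpr left 18976 genes, TMM factors were computed, and the 4 groups of all 18 libraries were fitted together by robust quasi-likelihood (common biological coefficient of variation 25.4%). The reporter line could not be a covariate. Tests were two-sided and Benjamini-Hochberg adjusted over every gene tested. SEs were obtained as the log2 fold change over the root of its F statistic. Changes beyond 2-fold were tested with glmTreat. Floors cover counting error only, since PCR copies are not independent molecules.

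Genes named are the 2 highest and 2 lowest fold changes among called genes with a mean of at least 10 CPM over the 9 libraries and no overlap, the same by the contrast of the negative populations among genes that also differ there, the most abundant gene of each group, and the gene most alike to the first gene in each direction by Pearson's r of log2 CPM (prior count 2). The comparison, lists and rules were chosen with earlier results of these data known. Alternatives were other scalings and filters, DESeq2 1.42.0, limma 3.58.1 (voom, sample quality weights), a replicate block, a fit of the groups compared alone, each of the 9 libraries left out, and either pair of Ncol3-negative libraries alone.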

Additional observations from a re-analysis of the deposited data

Results flagged for a closer look

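In 4 of 58 sets of replicates, the highest library lay apart from the others by more of the group's range than Dixon's criterion allows; chance gives about 1 in 20. NV2.13743 was at 115 CPM in Nep3-positive replicate 5, where the next library had 59.2 CPM, and NV2.23832 was at 103 CPM in the same library, where the next had 51.8 CPM. NV2.18359 was at 73.6 CPM in Ncol3-negative replicate 1, where the next had 58.2 CPM. NV2.17422 was at 11.03 CPM in Ncol3-positive replicate 4, where the next had 8.11 CPM.

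For 5 of the 12 named transcripts, the difference between positive and negative cells was not the same in the Nep3 and the Ncol3 line, by the interaction term of the edgeR fit. It was larger in the Nep3 line by 2.69 on the log2 scale for NV2.1329 (edgeR adjusted p = 0.049), by 2.31 for NV2.13743 (adjusted p = 0.0104), by 2.36 for NV2.23832 (adjusted p = 0.000345) and by 1.36 for NV2.10573 (adjusted p = 0.00382). For NV2.18817 the interaction was −5.88 (edgeR adjusted p = 1.77e-06). Positive minus negative cells gave a log2 fold change of −2.41 in the Nep3 line and 3.47 in the Ncol3 line for this gene. Over all genes, 22.8% passed this test. NV2.1329, NV2.13743 and NV2.10573 were chosen by contrasts of libraries that also enter this term, and NV2.23832 by its likeness to NV2.1329. NV2.18817 was named for its abundance in Ncol3-negative libraries, which enter the term too. The values and the count of 5 are therefore a description of genes chosen from the same data.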

How the results depend on the processing

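Across 20 alternatives, the number of genes called lay between 4830 and 7248 and the number beyond 2-fold between 1374 and 2087, and the lowest of the first came with Ncol3-negative replicates 1 and 2 alone. Library size only gave 2220 higher calls, and in the comparison with Ncol3-positive and Nep3-negative cells 618 genes higher in both, 2204 lower in both and 310 lower in the first and higher in the second. A mean of at least 5 CPM gave 1374 genes beyond 2-fold, 786 of them higher. The mOrange2 change was 1.29 with no filter (edgeR adjusted p = 0.0512), 0.95 with Ncol3-negative replicates 3 and 4 alone, and between 1.11 and 1.39 with single libraries left out. With single libraries left out, genes called between the negative populations numbered 1023 to 1635, the share in the 20 highest genes differed by 1.47 to 2.16 percentage points, and genes detected by −699 to −460. With Ncol3-negative replicates 1 and 2 alone, 484 genes were lower than in each other group, 289 were lower in Nep3-positive than Ncol3-negative and higher in Ncol3-positive than Nep3-negative cells, NV2.18817 turned to 0.12, the share differed by 2.64 points and genes detected by −639. With replicates 3 and 4 alone, 658 genes differed between the negative populations, the share by 1.04 points and genes detected by −468; neither pair could pass an exact permutation test (smallest p 0.0952). For the 10 named genes other than NV2.18817 and mOrange2, 198 of 199 values kept their direction and call; the exception was NV2.22547. The cause of these shifts was not tested.

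The replicate number as a block gave 6332 genes called, 1953 beyond 2-fold and an mOrange2 change of 1.20 (edgeR adjusted p = 0.0177). Same-numbered Nep3-positive and Ncol3-negative libraries come from different lines, and their deviations from the group means had correlations between −0.036 and 0.101, so the numbers do not pair them. Depth limits the size of changes for genes near 0 in 1 group.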

Other observations

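Of the 18976 genes tested, 10 had no count in any Ncol3-negative library and counts in all 5 Nep3-positive libraries, and 8 had none in any Nep3-positive library and counts in all 4 Ncol3-negative libraries. All 18 were called by the edgeR fit, against 34.6% of all genes tested. With no count in 1 group and counts in every library of the other, a call was nearly fixed in advance. Such genes also passed the filter only through groups where they had counts, so this is a description. Across whole lines, 2 genes had no count in the 10 Nep3-line libraries and counts in all 8 Ncol3-line libraries, and 2 had the reverse. Ncol3-negative replicates 1 and 2 stood together against replicates 3 and 4 in several named transcripts, NV2.17422 (28.7 and 36.0 against 90.2 and 96.5 CPM), NV2.20124 (10.9 and 7.0 against 44.5 and 33.9 CPM) and mOrange2 (248 and 215 against 380 and 353 CPM) among them; all carry the same batch label. Ncol3-positive replicates 1 and 2 also lay below replicates 3 and 4 for mOrange2 (674 and 774 against 1106 and 1204 CPM). The same held for NV2.20124 (8.96 and 4.13 against 58.2 and 45.9 CPM). NV2.17422 did not split this way there, at 8.11, 7.88, 7.91 and 11.03 CPM in replicates 1 to 4. These transcripts were singled out after their values were seen.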
